A study of Homo sapiens with 24 samples.

Results

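Heat shock proteins are chaperones that hold, fold or release other proteins, and many of their genes are switched on by the transcription factor HSF1 when unfolded protein accumulates. In the cytosol, HSP70 proteins bind exposed stretches of a client with the help of J-domain proteins and exchange factors, and HSP90 proteins finish the folding of kinases and receptors. In mitochondria, HSP60 forms a folding chamber that HSP10 closes as a lid. The genes described here are 10 cytosolic and mitochondrial chaperones linked to HSF1, taken by name from the 23368 genes of the count table: HSPA1A, HSPA1B, HSPA8, HSP90AA1, HSP90AB1, HSPH1, DNAJB1, HSPB1, HSPD1 and HSPE1. All 10 passed the filter on low counts that left 13947 genes for testing.

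The 24 libraries came from AGS, a cell line derived from a human stomach adenocarcinoma and labelled wild type, in 6 groups of 4 replicates collected after 24 h. Control cells received no inhibitor, and the labels do not say whether they received vehicle. The single agents were PI103 at 0.7 µM (an inhibitor of PI3 kinase and mTOR), PD0325901 at 0.035 µM (a MEK inhibitor) and (5Z)-7-oxozeaenol at 0.5 µM (a TAK1 inhibitor, called oxozeaenol below). In the combinations both agents were given at 50% of these concentrations, which is 0.35 µM PI103 with 0.25 µM oxozeaenol, or 0.35 µM PI103 with 0.0175 µM PD0325901. The label "batch" carries the replicate number, and nothing in the labels says whether replicates were separate cultures, so p-values measure the spread between these libraries. Counts in genes ran from 38.1 M to 84.2 M per library. Epithelial markers were present (EPCAM at 646 ± 18.7 CPM in control, SD, n = 4; KRT8 at 2800 ± 252 CPM, SD, n = 4). Group means of PTPRC, CD3E, COL1A2, DCN and PECAM1 were between 0 and 0.119 CPM, and COL1A1 and DES were low but moved with treatment, with group means of 8.69 to 33 CPM and 2.01 to 14 CPM. Their part in the results was not tested.

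Heat shock elements are inverted repeats of the 5 bases nGAAn, which HSF1 reads as a trimer. RefSeq (GRCh38.p14) gave promoter windows for all 10 genes, and the 250 bases before each start were searched on both strands for a pair of units (GAANNTTC or TTCNNGAA) and for 3 units (GAANNTTC followed by NNGAA, or TTCNNGAA followed by NNTTC, each of which contains 2 overlapping pairs). The 10 genes have 16 such windows, because some have more than 1 start. A pair was found in 8 of the 16 windows (of 8 genes), against 11.6% of all 35116 promoter windows. The 3 units were found in 4 of the 16 (HSPA8, HSP90AA1, HSP90AB1 and HSPD1), against 0.441% of all windows. The members were picked as chaperones linked to HSF1, so matches above these shares could be foreseen and are not a separate result. The windows of HSPA1A and HSPA1B were counted separately. A match is a stretch of letters and not a measured binding site. The stretches below are those of the genes the results turn on, 5′ to 3′ on the gene's strand, with the matched units in capitals. HSPA1A and HSPA1B are shown because their promoters are near copies (93.6% identity over 251 aligned columns). The others are shown because 3 units occur before genes that rose in all treatments (HSPA8), in 2 of them (HSP90AA1), or were only called lower against control (HSP90AB1, HSPD1).
HSPA1A, chr6:31815412-31815469, plus strand: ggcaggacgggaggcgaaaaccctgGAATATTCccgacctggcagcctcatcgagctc
HSPA1B, chr6:31827608-31827665, plus strand: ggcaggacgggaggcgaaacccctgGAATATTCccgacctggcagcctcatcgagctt
HSPA8 distal, chr11:123062346-123062374, minus strand: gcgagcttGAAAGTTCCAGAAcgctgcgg
HSPA8 proximal, chr11:123062171-123062199, minus strand: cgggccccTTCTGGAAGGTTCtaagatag
HSP90AA1, chr14:102087112-102087140, minus strand: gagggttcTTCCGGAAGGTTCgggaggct
HSP90AB1 distal, chr6:44247770-44247798, plus strand: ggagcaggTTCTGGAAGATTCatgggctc
HSP90AB1 proximal, chr6:44247823-44247851, plus strand: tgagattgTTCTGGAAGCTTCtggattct
HSPD1, chr2:197500062-197500090, minus strand: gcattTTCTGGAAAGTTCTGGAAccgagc
The HSPD1 stretch holds 2 overlapping matches of 3 units. It lies before the inner of the 2 RefSeq starts of HSPD1 on chromosome 2 (197499840) and after the outer one (197500274), which faces the HSPE1 start at 197500379 across 104 bases. The HSPD1 stretch is also upstream of that HSPE1 start, but outside the window searched for HSPE1 (197500129 to 197500378). That HSPE1 has no match therefore depends on the length of the window. The HSP90AB1 stretches lie before its innermost start (44247943) and after those at 44246194 and 44247101, whose windows hold no pair. The HSP90AA1 stretch lies before the inner start (102087044), and the window of the outer start (102139749) holds no pair. The HSP90AA1 and HSPD1 stretches lie inside annotated GENCODE exons, as do 182 of the 233 bases around and between the HSPA8 stretches.

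Levels were compared between groups as counts-per-million (CPM) after TMM scaling, and a gene was called at a Benjamini-Hochberg adjusted p under 0.05 in edgeR's quasi-likelihood test across all 13947 genes. Against control, 5 of the 10 genes were called with PI103 (4 higher, 1 lower), where 51.4% of all genes were called (26.2% higher, 25.2% lower). With PD0325901, 6 were called (4 higher, 2 lower) against 58.6% of all genes (28.7% higher, 29.9% lower). With oxozeaenol, 5 were called, all higher, against 51.9% of all genes (25.7% higher, 26.1% lower). With PI103 and oxozeaenol, 5 were called (4 higher, 1 lower) against 55.6% of all genes (27.7% higher, 27.9% lower). With PI103 and PD0325901, 6 were called (3 higher, 3 lower) against 64.8% of all genes (32.2% higher, 32.6% lower). In this fit, the total counts of members called in either direction were close to the background in every treatment. By direction they were furthest from it with oxozeaenol, where all 5 were higher, and this split was not tested. With the replicate number as a block, 8 genes were called with oxozeaenol (2 of them lower, HSP90AB1 and HSPD1) and 9 with PI103 and PD0325901, and the other 3 counts stayed at 5, 6 and 5. The share of all genes called with the block was not taken, so these counts cannot be read as an excess of members. Groups did not overlap for 4, 5, 4, 4 and 6 of the 10 genes in the same order, against 48.9%, 49%, 42.2%, 52.6% and 56.9% of all genes. The median log2 fold change of the 10 genes was 0.12, -0.12, 0.37, 0.17 and -0.15, beside medians of all genes between -0.02 and 0.02. All 5 comparisons share the same 4 control libraries.

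**Figure D1:**
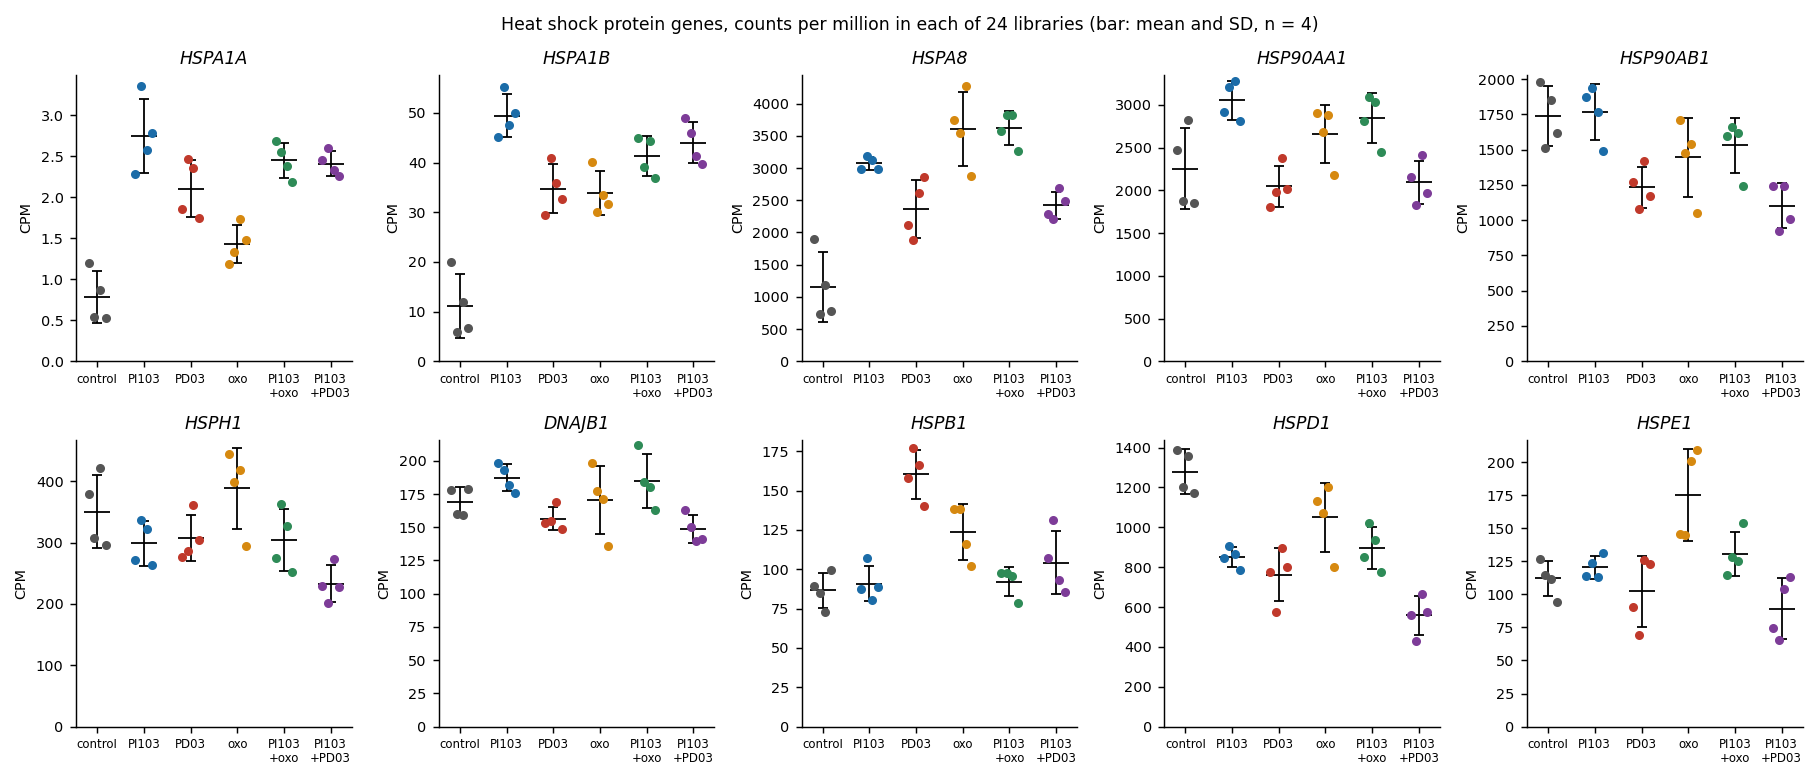
CPM of each of the 10 genes (vertical axes, from 0) in every library, by group, with the mean and SD of 4 libraries; PD03 stands for PD0325901 and oxo for oxozeaenol. HSPA1B and HSPA8 lie above most or all control libraries in every treatment, HSPB1 is highest with PD0325901 (140 to 177 CPM), and HSPD1 is lowest with PI103 and PD0325901 (431 to 663 CPM).

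HSPA1A and HSPA1B on chromosome 6 (GRCh38, 31815464 to 31817946 and 31827735 to 31830255, plus strand, each 1 exon in GENCODE 29) encode the inducible HSP70. HSPA1B read 20, 5.96, 11.9 and 6.69 CPM in control replicates 1 to 4. It read 45.2, 55.2, 47.5 and 49.9 CPM with PI103, 29.5, 41, 35.9 and 32.6 CPM with PD0325901, and 40.2, 30.1, 33.5 and 31.7 CPM with oxozeaenol. It read 45, 39.1, 44.3 and 36.9 CPM with PI103 and oxozeaenol, and 48.9, 45.9, 41.4 and 39.8 CPM with PI103 and PD0325901. All 20 treated libraries stood above all 4 controls. The rise was 4.44-fold with PI103 (log2 fold change 2.15, SE 0.23, edgeR adjusted p = 6.59e-08) and 3.04- to 3.95-fold in the other treatments, all called.

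Per kilobase of exon HSPA1A was far below its copy, at 0.315 against 4.42 CPM per kb in control. It read 1.2, 0.54, 0.867 and 0.525 CPM in control, 2.28, 3.35, 2.57 and 2.78 CPM with PI103, and 1.86, 2.46, 2.35 and 1.75 CPM with PD0325901. With oxozeaenol it read 1.18, 1.33, 1.73 and 1.48 CPM, so that replicate 1 fell just below control replicate 1. With PI103 and oxozeaenol it read 2.68, 2.55, 2.38 and 2.18 CPM, and with PI103 and PD0325901 2.45, 2.6, 2.33 and 2.26 CPM. It rose in all 5 treatments, from 1.81-fold with oxozeaenol (edgeR adjusted p = 0.00168) to 3.49-fold with PI103 (edgeR adjusted p = 8.56e-08). HSPA1A was higher with PI103 than with oxozeaenol by 0.95 on the log2 scale (SE 0.20, edgeR adjusted p = 0.000511), and the 2 copies added together by 0.56 (adjusted p = 0.0418).

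The split of reads between the copies is uncertain. Of all 75-base windows of HSPA1A transcripts, 69.3% also occur in HSPA1B, and 70.1% of those of HSPA1B occur in HSPA1A. Reads without a unique alignment were tallied apart from the genes and made up 4.64% to 6.06% of the tallied reads. In addition, 36.5% of the exon length of HSPA1B is shared with AL671762.1 on the same strand. Added together, the pair read 11.9 ± 6.8 CPM in control and in treated cells 52.2 CPM (PI103), 36.9 CPM (PD0325901), 35.3 CPM (oxozeaenol), 43.8 CPM (PI103 and oxozeaenol) and 46.4 CPM (PI103 and PD0325901) (means, n = 4). The summed rise was 2.13, 1.63, 1.57, 1.88 and 1.96 on the log2 scale, called in all 5 treatments. HSPA1A made up 7.01% of the pair's counts in control and 4.11% to 5.7% in the treatments, and in no treatment did the exact permutation test of this share pass an adjusted p of 0.05 (lowest 0.0714).

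HSPA8 (chromosome 11, 123057489 to 123063230, minus strand, 9 exon blocks) encodes HSC70, the constitutive HSP70 that carries most of the housekeeping folding. In control it read 1900, 738, 1190 and 776 CPM, and it read 2990, 3190, 3130 and 2990 CPM with PI103. It read 2110, 1880, 2610 and 2860 CPM with PD0325901 and 3740, 3540, 4270 and 2880 CPM with oxozeaenol. With PI103 and oxozeaenol it read 3580, 3830, 3820 and 3260 CPM, and with PI103 and PD0325901 2290, 2210, 2690 and 2490 CPM. All treated libraries stood above all controls except PD0325901 replicate 2, which was just under control replicate 1. HSPA8 rose 2.67-fold with PI103, 2.05-fold with PD0325901 and 3.13-fold with oxozeaenol, and 3.15-fold and 2.1-fold in the combinations of PI103 with oxozeaenol and PD0325901, all called (edgeR adjusted p at most 0.000111). It has 17 pseudogenes by name, and 1.2% of its 75-base windows occur in other annotated transcripts.

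These 3 HSP70 genes also varied most among the control libraries. Control replicate 1 was highest and replicate 3 next for all 3, while replicates 2 and 4 were lowest. DDIT3, a stress-induced transcription factor gene, ran the other way, at 72.4, 140, 88.2 and 156 CPM in control replicates 1 to 4, and it was lower in all 5 treatments (group means of 7.8 to 35.1 CPM, against 114 CPM in control). DDIT3 shares 27.2% of its exon length with MARS on the opposite strand. Its part in the HSP70 result was not tested. Without control replicate 1 the log2 fold change of HSPA8 with PI103 was 1.77, and without control replicate 2 it was 1.25. Within replicate numbers the rise of HSPA8 was smallest in number 1 in every treatment (log2 differences of 0.65, 0.15, 0.97, 0.91 and 0.26). HSPA1A, HSPA1B and HSPA8 were called in all 5 treatments whichever library of the groups compared was left out.

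**Figure D2:**
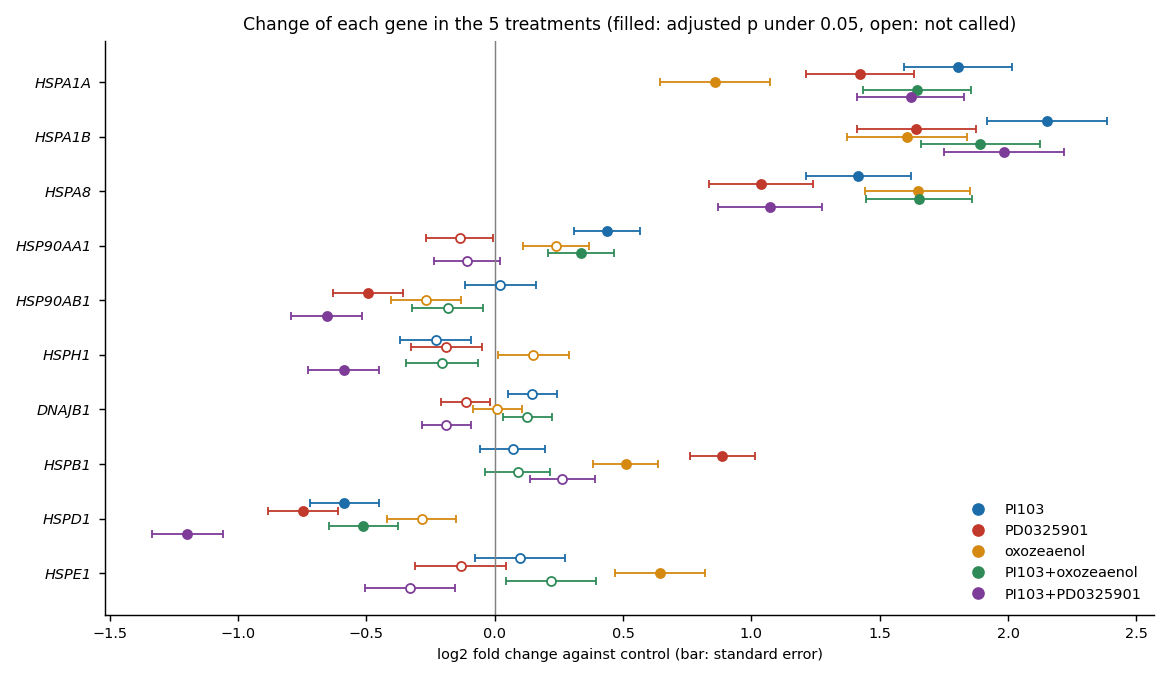
Log2 fold change against control (horizontal axis) of each gene in the 5 treatments, with the standard error of edgeR's fit; filled points passed an adjusted p of 0.05 and open points did not. HSPA1A, HSPA1B and HSPA8 are right of 0 in all treatments, HSPD1 is left of 0, and DNAJB1 lies between -0.19 and 0.15 with no filled point.

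DNAJB1 and HSPH1 encode partners of these HSP70s and were not called higher in any treatment with TMM scaling. DNAJB1 (chromosome 19, 14514770 to 14529770, minus strand) encodes HSP40, which delivers clients to HSP70. It read 178, 160, 159 and 179 CPM in control and group means of 149 to 187 CPM in the treatments. None of its 5 log2 fold changes passed the test (0.15, -0.11, 0.01, 0.13 and -0.19, SE 0.10 each, edgeR adjusted p of 0.0867 to 0.943). Alternatives gave calls in both directions: DNAJB1 was higher with PI103 under upper-quartile scaling (0.22, edgeR adjusted p = 0.041). It was lower with PI103 and PD0325901 with the replicate number as a block (-0.19, edgeR adjusted p = 0.0341) and without replicate 1 of that combination (lowest adjusted p 0.0448). HSPH1 (chromosome 13, 31134974 to 31162388, minus strand) encodes HSP110, a nucleotide exchange factor of HSP70. It read 379, 307, 421 and 296 CPM in control and 230, 202, 274 and 227 CPM with PI103 and PD0325901, where every library was below every control. It fell there by 0.59 on the log2 scale (SE 0.14, edgeR adjusted p = 0.000642), and in the other treatments its values were -0.23 to 0.15 and were not called.

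The cytosolic HSP90 genes moved apart. HSP90AA1 (chromosome 14, 102080738 to 102139699, minus strand) encodes the more inducible HSP90 alpha, and HSP90AB1 (chromosome 6, 44246166 to 44253888, plus strand) the constitutive HSP90 beta. HSP90AA1 read 2470, 1880, 2820 and 1850 CPM in control and 2920, 3210, 3280 and 2810 CPM with PI103. It rose with PI103 (1.36-fold, log2 fold change 0.44, SE 0.13, edgeR adjusted p = 0.00614), with PI103 replicate 4 just under the highest control. With PI103 and oxozeaenol it read 2810, 3090, 3030 and 2450 CPM and was called at 0.34 (edgeR adjusted p = 0.0303). That call was lost without control replicate 2 or 4 or without combination replicate 2 or 3 (log2 fold changes of 0.25 to 0.47 over the 8 fits that each leave out 1 library, largest adjusted p 0.125), and with no filter on low counts (0.29, adjusted p = 0.0713). It was not called with oxozeaenol (0.24, SE 0.13, adjusted p = 0.126), but was with the replicate number as a block (0.25, adjusted p = 0.0338), under upper-quartile scaling (0.30, adjusted p = 0.0423) and without control replicate 3 or oxozeaenol replicate 4 (lowest adjusted p 0.0236). Values with PD0325901 (-0.14) and PI103 and PD0325901 (-0.11) were not called.

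HSP90AB1 read 1980, 1510, 1850 and 1620 CPM in control. It read 1270, 1080, 1420 and 1170 CPM with PD0325901 and 1240, 924, 1240 and 1010 CPM with PI103 and PD0325901, all below the lowest control. It fell by 0.49 (SE 0.14, edgeR adjusted p = 0.00327) and by 0.65 (SE 0.14, edgeR adjusted p = 0.00018) on the log2 scale. Its mean with PI103 was 1770 ± 195 CPM against 1740 ± 213 CPM in control (SD, n = 4). With oxozeaenol (-0.27, adjusted p = 0.103) it was called with the replicate number as a block (-0.28, adjusted p = 0.0202) and without oxozeaenol replicate 1 (adjusted p = 0.0411). HSP90AA1 was thus called higher with PI103, and HSP90AB1 called lower with PD0325901.

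HSP90AA1 and HSP90AB1 were also set against each other within each library, together with HSPD1 against HSPE1 and HSPA8 against HSPA9 (mortalin, the mitochondrial HSP70). These ratios of counts were chosen after the values were seen, so their tests describe the same libraries and add no independent evidence. The log2 ratio of HSP90AA1 to HSP90AB1 was 0.316, 0.315, 0.609 and 0.197 in control and averaged 0.795 ± 0.129 with PI103, 0.73 ± 0.155 with PD0325901 and 0.894 ± 0.117 with oxozeaenol (SD, n = 4). It averaged 0.897 ± 0.0713 with PI103 plus oxozeaenol and 0.926 ± 0.0852 with PI103 plus PD0325901 (SD, n = 4). All treated libraries but one of PD0325901 (0.511) stood above all controls. By the exact two-sided permutation test, p was 0.0286, the smallest that 4 against 4 allows, in every treatment except PD0325901 (0.0571), with adjusted values of 0.0357 and 0.0571. The ratio shows unequal change and not which gene moved.

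**Figure D3:**
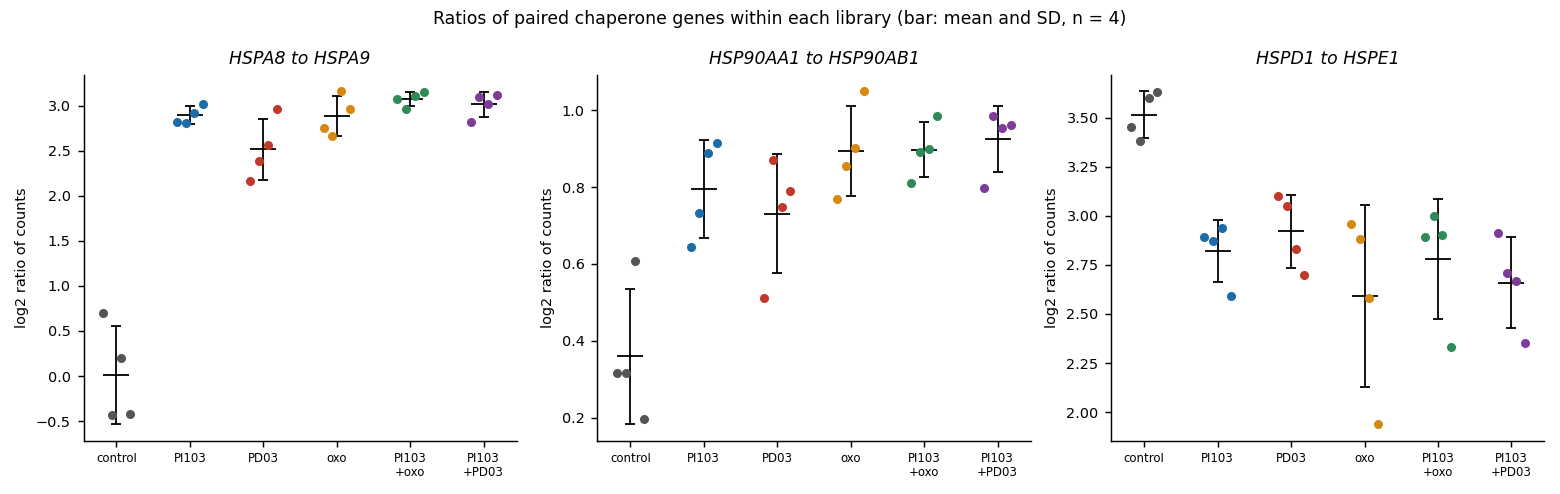
Log2 ratio of the counts of 2 genes within each library (vertical axes, which do not start at 0) by group, with mean and SD of 4 libraries. HSPA8 to HSPA9 is between -0.427 and 0.698 in control and between 2.16 and 3.16 in treated libraries, and HSPD1 to HSPE1 is between 3.38 and 3.63 in control and at most 3.1 in treated libraries.

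HSPB1 (chromosome 7, 76302544 to 76304295, plus strand) encodes HSP27, a small heat shock protein that holds unfolded clients without ATP. It was the one member that rose with PD0325901 and oxozeaenol and showed no call with PI103. It read 89.1, 85.1, 72.8 and 99.8 CPM in control, 158, 177, 166 and 140 CPM with PD0325901 and 138, 138, 116 and 102 CPM with oxozeaenol. Both groups stood above all controls. The rise was 1.85-fold with PD0325901 (log2 fold change 0.89, SE 0.13, edgeR adjusted p = 1.46e-06) and 1.42-fold with oxozeaenol (0.51, SE 0.13, edgeR adjusted p = 0.00153). With PI103 it read 87.3, 107, 80.6 and 88.6 CPM (0.07, adjusted p = 0.668), and with PI103 and oxozeaenol 97.3, 97.4, 95.4 and 78.6 CPM (0.09, adjusted p = 0.571). The difference itself passed the test: HSPB1 with PI103 against PD0325901 gave a log2 difference of -0.82 (SE 0.13, edgeR adjusted p = 9.33e-06) and fell by 0.44 against oxozeaenol (SE 0.13, edgeR adjusted p = 0.00658). With PI103 and PD0325901 it read 107, 131, 93 and 85.4 CPM and was not called (0.26, adjusted p = 0.0701). It was called there with the replicate number as a block (0.24, adjusted p = 0.0388), under upper-quartile scaling (0.41, adjusted p = 0.00691) and without control replicate 4 or combination replicate 3 or 4 (lowest adjusted p 0.0234).

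HSPD1 and HSPE1 (chromosome 2, 197486581 to 197516737 on the minus strand and 197499994 to 197503457 on the plus strand) encode the mitochondrial chaperonin HSP60 and its lid HSP10. HSPD1 was called lower in 4 treatments and HSPE1 in none in the fit without a block. HSPD1 read 1390, 1200, 1360 and 1170 CPM in control, 848, 905, 865 and 788 CPM with PI103, and 777, 577, 896 and 800 CPM with PD0325901. It read 853, 1020, 936 and 774 CPM with PI103 and oxozeaenol and 560, 431, 663 and 577 CPM with PI103 and PD0325901. All of these libraries were below the lowest control. HSPD1 fell by 0.59 with PI103 (edgeR adjusted p = 0.000743), by 0.75 with PD0325901 (3.9e-05), by 0.51 with PI103 and oxozeaenol (0.00229) and by 1.20 with PI103 and PD0325901 (2.85e-08), on the log2 scale with SE 0.14 each. With oxozeaenol it read 1130, 1070, 1200 and 801 CPM (-0.29, adjusted p = 0.079), and was called with the replicate number as a block (-0.29, adjusted p = 0.0397), with no filter on low counts (-0.33, adjusted p = 0.0499) and without oxozeaenol replicate 3 (adjusted p = 0.0459).

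HSPE1 read 127, 115, 112 and 94.4 CPM in control and 146, 145, 201 and 209 CPM with oxozeaenol, where it rose 1.56-fold (log2 fold change 0.64, SE 0.18, edgeR adjusted p = 0.00381) with all libraries above control. The highest values were in oxozeaenol replicates 3 and 4. Replicate 3 had the fewest counts in genes of all libraries (38.1 M), and replicate 4 the largest share of tallied reads in no feature (8.57%). The part of these traits in the rise was not tested. In the other treatments it read 114, 124, 113 and 131 CPM (PI103), 90.6, 69.5, 126 and 123 CPM (PD0325901), 115, 128, 125 and 154 CPM (PI103 and oxozeaenol) and 74.4, 65.7, 104 and 113 CPM (PI103 and PD0325901). None of these was called (-0.33 to 0.22). With PI103 and PD0325901 it was called lower with the replicate number as a block (-0.37, adjusted p = 0.0264) and without replicate 4 of that combination (-0.46, adjusted p = 0.0306). The log2 ratio of HSPD1 to HSPE1 counts was 3.51 ± 0.12 in control and 2.83 ± 0.159, 2.92 ± 0.188, 2.59 ± 0.463, 2.78 ± 0.303 and 2.66 ± 0.232 in the treatments (SD, n = 4), lower in every treated library than in any control (exact permutation p = 0.0286 each, adjusted 0.0286). HSPE1 shares 14.2% of its exon length with HSPD1 on the opposite strand and 9.71% with the readthrough gene HSPE1-MOB4. It also has 26 pseudogenes by name, and 18% of its 75-base windows occur in other transcripts, so its counts are less certain than those of HSPD1 (9.3%).

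HSPA9, the mitochondrial HSP70, fell with HSPD1 and against its cytosolic relative HSPA8. Its mean was 1060 ± 78.7 CPM in control and 300 to 491 CPM in the treatments, with log2 fold changes of -1.35, -1.37, -1.11, -1.30 and -1.82, all called. The log2 ratio of HSPA8 to HSPA9 counts was 0.698, -0.427, 0.199 and -0.421 in control and averaged 2.89 (PI103), 2.52 (PD0325901), 2.88 (oxozeaenol), 3.07 (PI103 and oxozeaenol) and 3.02 (PI103 and PD0325901) in the treatments. No treated library came near the controls (exact permutation p = 0.0286 in each, adjusted 0.0286). These are ratios of counts and not of levels per length.

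These shifts changed the order of the 10 genes by level. Per kilobase of exon, the order in control was HSP90AB1 (584 CPM per kb), HSP90AA1 (430), HSPD1 (301) and HSPA8 (238), then HSPE1 (56.7), HSPB1 (53), DNAJB1 (46.1), HSPH1 (41.8), HSPA1B (4.42) and HSPA1A (0.315). Libraries of HSP90AB1 and HSP90AA1 overlapped, as did those of HSPD1 and HSPA8 and each neighbouring pair from HSPE1 to HSPH1. In each of the 5 treatments HSPA8 had the highest mean level, at 634, 487, 744, 747 and 499 CPM per kb. Per kilobase it stood clear of the next gene only with oxozeaenol and with PI103 and oxozeaenol. The exon lengths merge all annotated transcripts of a gene, so this order depends on the annotation. In CPM without length, HSP90AA1 (mean 2260) was above HSP90AB1 (1740) in control, and HSPA8 again had the highest mean in each treatment. With oxozeaenol the CPM of HSPA8 (lowest 2880) then overlapped that of HSP90AA1 (highest 2910). Of all gene counts, the 10 genes held 0.686% ± 0.132 in control, 0.956% ± 0.0565 (PI103), 0.728% ± 0.0717 (PD0325901), 0.942% ± 0.123 (oxozeaenol), 0.964% ± 0.0884 (PI103 and oxozeaenol) and 0.711% ± 0.0665 (PI103 and PD0325901) in the treatments (SD, n = 4). By the exact permutation test the raw p was 0.0286 for PI103 alone and for its combination with oxozeaenol, and no treatment passed an adjusted p of 0.05 (lowest 0.0714).

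The combinations were compared with each of their agents and with the mean of the agents' effects. That reference holds only if a dose cut to 50% gives 50% of the effect and the effects of the 2 agents add, both on the log2 scale. With PI103 and oxozeaenol, 0 of the 10 genes were called against PI103 (18.3% of all genes) and 0 against the mean (3.98% of all genes). In edgeR's quasi-likelihood test, 0 genes had an unadjusted p under 0.05 in either comparison, and DESeq2 called 0 in both. A fit on only those groups called HSPA1B (-0.27, adjusted p = 0.0201) and HSPA8 (0.23, adjusted p = 0.029) against PI103. Against oxozeaenol, 2 genes were called (14.9% of all genes). HSPA1A was higher by 0.79 (SE 0.20, edgeR adjusted p = 0.00981), but HSPA1A and HSPA1B added together gave 0.31, which was not called (adjusted p = 0.366). HSPB1 fell by 0.42 (SE 0.13, edgeR adjusted p = 0.0246). The HSPB1 call was lost without oxozeaenol replicate 1 or 2 or combination replicate 1 or 4 (-0.50 to -0.36, largest adjusted p 0.0851). With the replicate number as a block 4 were called, adding HSPH1 (-0.35) and HSPE1 (-0.41).

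With PI103 and PD0325901, 5 genes were called against PI103, all lower (38.7% of all genes, 19.9% lower). HSP90AB1 fell by 0.68, HSPD1 by 0.61, HSP90AA1 by 0.55, HSPH1 by 0.36 and DNAJB1 by 0.34 on the log2 scale. The HSPH1 call (adjusted p = 0.0431) was lost without PI103 replicate 2 or 3 or combination replicate 1, 2 or 4 (-0.45 to -0.30, largest adjusted p 0.144), and the other 4 calls kept an adjusted p under 0.05 whichever library was left out. HSPE1 (-0.43, adjusted p = 0.0565) was called with the replicate number as a block (-0.46, adjusted p = 0.0128) and by DESeq2 (-0.42, adjusted p = 0.0375). A fit on only those groups called 7, adding HSPA8 (-0.34, adjusted p = 0.0103) and HSPE1 (-0.42, adjusted p = 0.0472). Against PD0325901, 3 genes were called, all lower (18.1% of all genes, 10% lower). HSPB1 fell by 0.62 (SE 0.13, edgeR adjusted p = 0.00136), HSPD1 by 0.45 (0.0217) and HSPH1 by 0.40 (0.0466). The HSPD1 call was lost without PD0325901 replicate 3 or 4 or combination replicate 1 or 2 (-0.58 to -0.35, largest adjusted p 0.102), and the HSPH1 call without PD0325901 replicate 3 or 4 or combination replicate 1, 2 or 4 (-0.49 to -0.32, largest adjusted p 0.179).

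Against the mean of its agents, the combination of PI103 and PD0325901 had 3 genes called, all lower (22% of all genes, 11.1% lower). HSPD1 lay furthest below the mean: it fell by 1.20 against control where PI103 alone gave -0.59 and PD0325901 alone -0.75 (departure -0.53, SE 0.12, edgeR adjusted p = 0.00267). HSP90AB1 departed by -0.42 (edgeR adjusted p = 0.015), and HSPH1 by -0.38 (edgeR adjusted p = 0.0275). HSP90AB1 lost its call without combination replicate 2 or 4 (-0.48 to -0.34, largest adjusted p 0.0889). HSPH1 lost it without PI103 replicate 2, PD0325901 replicate 3 or combination replicate 1, 2 or 4 (-0.47 to -0.32, largest adjusted p 0.128). With the replicate number as a block 5 were called, adding HSP90AA1 (-0.26) and DNAJB1 (-0.21).

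**Figure D4:**
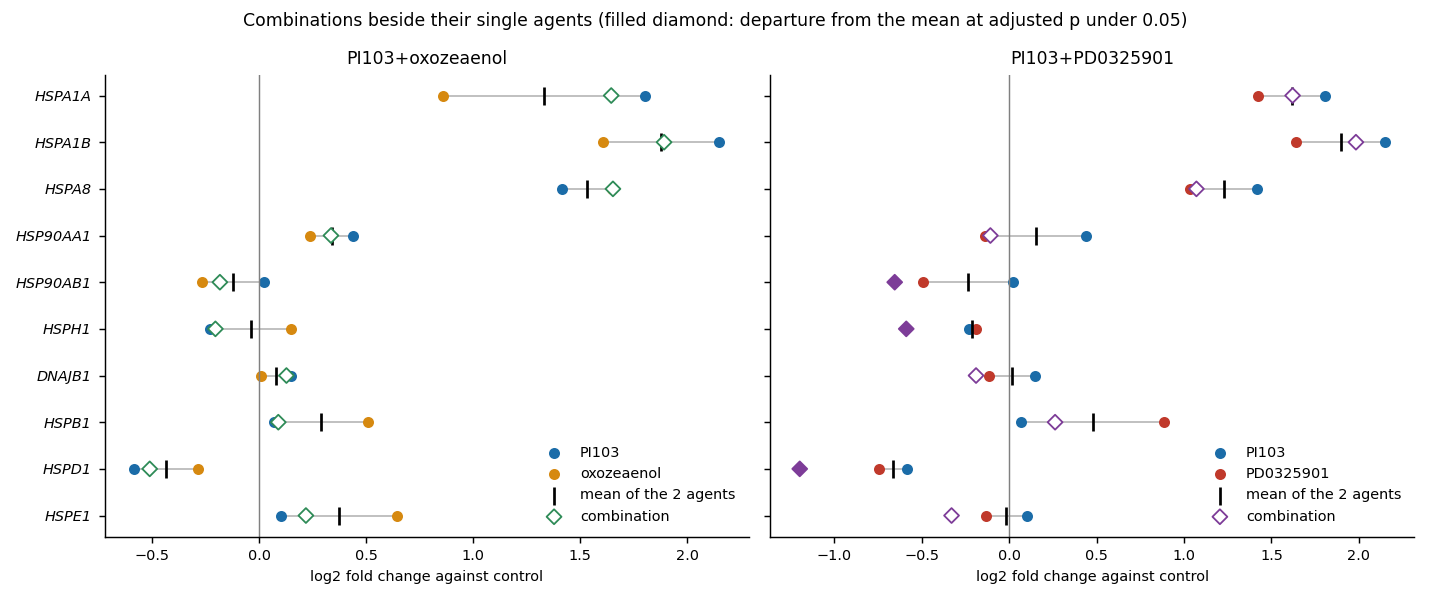
Log2 fold change against control (horizontal axis) of each gene with the 2 single agents (circles), their mean (black bar) and the combination (diamond), for PI103 with oxozeaenol (left) and PI103 with PD0325901 (right); filled diamonds departed from the mean at an adjusted p under 0.05. On the right HSPD1 lies at -1.20, beyond both agents at -0.59 and -0.75, while on the left no diamond is filled.

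Single agents were also compared directly, each at its own concentration. PI103 and PD0325901 differed in 4 genes (44.5% of all genes). HSP90AA1 was higher with PI103 by 0.58 (edgeR adjusted p = 0.000723), HSP90AB1 by 0.52 (0.00341) and DNAJB1 by 0.26 (0.0298), and HSPB1 was the gene lower with PI103. The DNAJB1 call was lost without PI103 replicate 1 or 2 or PD0325901 replicate 1, 2 or 4 (0.22 to 0.30, largest adjusted p 0.127). A fit on only those groups called 6, adding HSPA1B (0.51, adjusted p = 0.00189) and HSPA8 (0.38, adjusted p = 0.027). PI103 and oxozeaenol differed in 4 genes (43.1% of all genes): HSPA1A was higher with PI103, and HSPB1, HSPE1 (-0.54, adjusted p = 0.0154) and HSPH1 (-0.38, adjusted p = 0.029) were lower. HSPE1 lost its call without oxozeaenol replicate 3 or 4 (-0.63 to -0.45, largest adjusted p 0.0579), and HSPH1 without PI103 replicate 1 or 4 or oxozeaenol replicate 1, 2 or 3 (-0.49 to -0.31, largest adjusted p 0.0948). With the replicate number as a block 7 were called, adding HSPA1B (0.56), HSP90AB1 (0.30) and HSPD1 (-0.29), and a fit on only those groups called 6.

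PD0325901 and oxozeaenol differed in 6 genes (28.5% of all genes). HSPE1 was lower with PD0325901 by a log2 difference of -0.78 (edgeR adjusted p = 0.00227), which held whichever library was left out. The other 5 were HSPA8 (-0.61), HSPD1 (-0.46), HSP90AA1 (-0.38), HSPA1A (0.57) and HSPB1 (0.38), and each lost its call without at least 1 library. HSPA8 lost it without replicate 1 or 2 of PD0325901 or replicate 1 or 3 of oxozeaenol (largest adjusted p 0.12), and HSPD1 without PD0325901 replicate 2 or oxozeaenol replicate 3 (0.0922). HSP90AA1 lost it without replicate 1, 2 or 4 of PD0325901 or 1, 2 or 3 of oxozeaenol (0.127), HSPA1A without 2 or 3 of PD0325901 or 1, 2 or 4 of oxozeaenol (0.103), and HSPB1 without 2 or 3 of PD0325901 or 3 or 4 of oxozeaenol (0.0975). With the replicate number as a block 7 were called, adding HSPH1 (-0.33, adjusted p = 0.0208), and a fit on only these groups called 3. HSPA1A and HSPA1B added together gave 0.06 in this comparison, which was not called (adjusted p = 0.855).

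Around the 10 genes, 97 genes in 11 lists of related chaperones and regulators were examined, of which 88 were tested. Called higher and lower were 11 and 46 with PI103, 16 and 40 with PD0325901, 16 and 36 with oxozeaenol, 11 and 44 with PI103 and oxozeaenol, and 17 and 54 with PI103 and PD0325901. Their median log2 fold changes were -0.28, -0.23, -0.08, -0.24 and -0.43. Of all genes tested, 26.2%, 28.7%, 25.7%, 27.7% and 32.2% were called higher and 25.2%, 29.9%, 26.1%, 27.9% and 32.6% lower in the same order, and the counts per list below are to be read beside these shares. More of the called list genes were lower than higher in each treatment. HSPA6, a strictly heat-inducible HSP70 gene, had at most 4 counts in any library and was not tested, as were HSPA7, DNAJA4, HSPB2, HSPB3, HSPB6, HSPB7, HSPB9 and CRYAA.

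**Figure D5:**
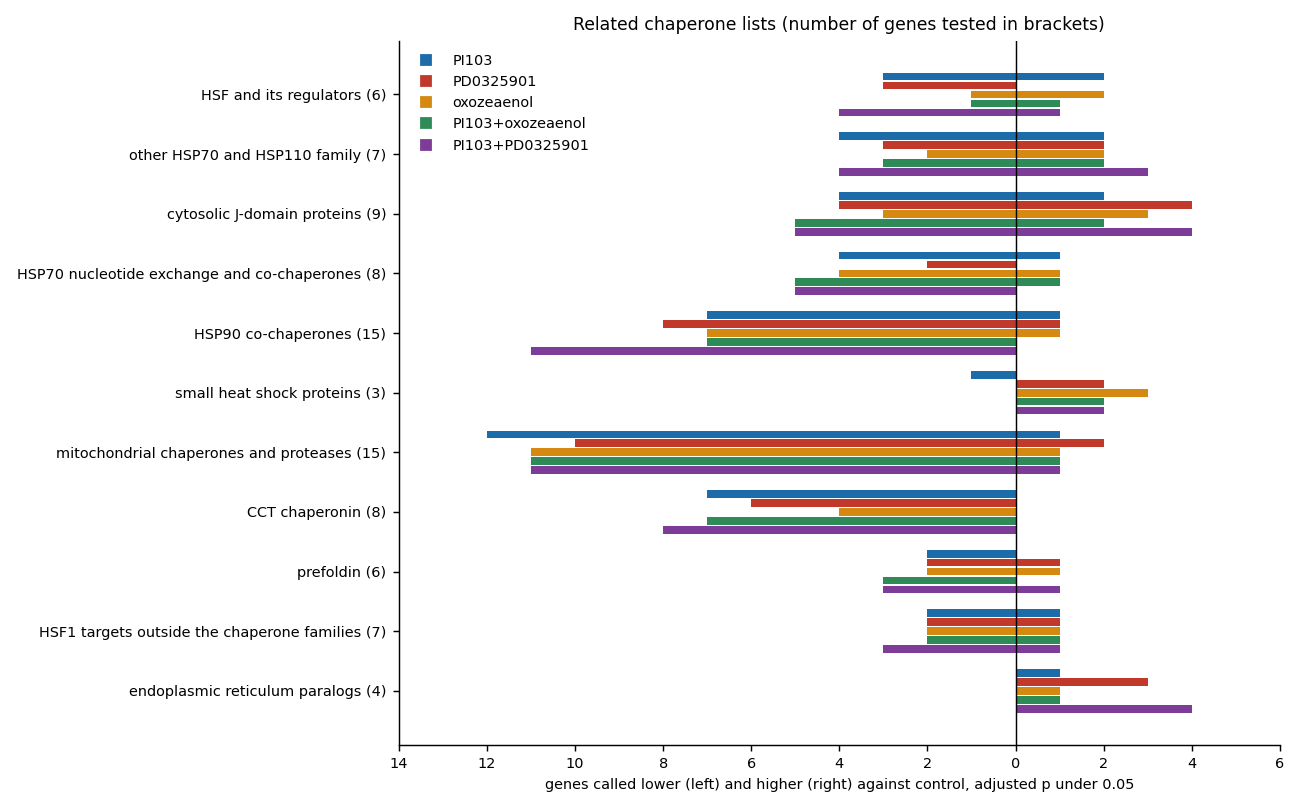
Number of genes called lower (left of 0) and higher (right of 0) against control in each list of related chaperones, by treatment. The CCT chaperonin has none called higher and 4 to 8 of 8 called lower, and mitochondrial chaperones and proteases have 10 to 12 of 15 called lower.

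The regulators gave no common direction. HSF1, the master regulator of the heat shock response, was called lower in all 5 treatments (-0.30, -0.41, -0.39, -0.33 and -0.60), from 60.5 ± 6.64 CPM in control to group means of 39.8 to 49.2 CPM. Of the 6 tested genes in its list, 2, 0, 2, 1 and 1 were called higher and 3, 3, 1, 1 and 4 lower. Of 7 HSF1 targets outside the chaperone families, 1 was called higher in each treatment and 2, 2, 2, 2 and 3 lower. Among the latter ZFAND2A, a proteasome-associated stress gene, fell in all 5 treatments, by 2.13 (PI103), 1.24 (PD0325901), 1.21 (oxozeaenol), 1.84 (PI103 and oxozeaenol) and 1.83 (PI103 and PD0325901). BAG3, an HSP70 exchange factor and known HSF1 target, was called lower only with oxozeaenol (-0.31) and PI103 and oxozeaenol (-0.27), and read 0.18, 0.00 and -0.02 with PI103, PD0325901 and their combination, not called.

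Among other relatives and partners of these chaperones a few rose with the HSP70s. HSPA2, an HSP70 relative, rose in all 5 treatments, by 1.51 (PI103), 1.15 (PD0325901), 0.60 (oxozeaenol), 1.21 (PI103 plus oxozeaenol) and 1.53 (PI103 plus PD0325901). DNAJA1, a J-domain partner of HSC70, rose in all 5 treatments by 0.56 to 0.93, and read 197, 107, 187 and 112 CPM in control, in the same order of replicates as HSPA8. DNAJB4, another J-domain gene, rose in all 5 by 0.38 to 0.70. HSPA13 fell by 1.48 (PI103), 1.27 (PD0325901), 1.10 (oxozeaenol), 1.38 (PI103 and oxozeaenol) and 1.44 (PI103 and PD0325901). Of the 7 other HSP70 and HSP110 genes, 2, 2, 2, 2 and 3 were called higher and 4, 3, 2, 3 and 4 lower, and of 9 cytosolic J-domain genes 2, 4, 3, 2 and 4 higher and 4, 4, 3, 5 and 5 lower. Of 8 HSP70 co-chaperones, 1, 0, 1, 1 and 0 were higher and 4, 2, 4, 5 and 5 lower, and of 15 HSP90 co-chaperones 1, 1, 1, 0 and 0 were higher and 7, 8, 7, 7 and 11 lower.

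HSPB8, a small heat shock protein and partner of BAG3, rose with PD0325901 (0.96) and oxozeaenol (0.81), as HSPB1 did. It was also called higher with PI103 and PD0325901 (0.60) and lower with PI103 alone (-0.59). Under the combination of PI103 plus oxozeaenol, HSPB8 was not called (0.07). Of the 3 tested genes of the small heat shock protein list 0, 2, 3, 2 and 2 were called higher, and 1 was lower, with PI103. In mitochondria, 12, 10, 11, 11 and 11 of 15 chaperones and proteases were called lower, and 1, 2, 1, 1 and 1 higher. GRPEL2, an exchange factor of HSPA9, fell by 2.01 (PI103), 1.32 (PD0325901), 1.02 (oxozeaenol), 1.73 (PI103 plus oxozeaenol) and 2.26 (PI103 plus PD0325901). The CCT chaperonin, which folds actin and tubulin in the cytosol, had 7, 6, 4, 7 and 8 of 8 subunits called lower and none higher, and prefoldin, which delivers clients to it, had 2, 2, 2, 3 and 3 of 6 lower and 0, 1, 1, 0 and 1 higher. Of 4 paralogs of the endoplasmic reticulum, 1, 3, 1, 1 and 4 were called higher and none lower, with medians of -0.23, 0.48, 0.20, 0.18 and 0.54. Where 1 was called it was HSP90B1. HSP90B1, the HSP90 of that compartment, rose by 0.85, 1.13, 0.88, 1.27 and 1.47 (control 1610 ± 270 CPM, treatments 2900 to 4470 CPM).

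For each member, the genes with the most similar changes over the 5 treatments were found by the root-mean-square difference of log2 fold changes, among genes with a mean of at least 5 CPM. For HSPD1 they were PUS1 (0.05) and TOMM40 (0.0568), for HSPA1B LTBP2 (0.107) and MYO15B (0.216), for HSPA1A B3GALT4 (0.114) and EFNA2 (0.131), and for HSPA8 NANOS1 (0.121) and MATN2 (0.25). For HSP90AA1 they were OIP5-AS1 (0.0483) and SCRIB (0.0574), and for HSP90AB1 NRF1 (0.0432) and MEST (0.0509). HSPB1 was nearest to SLC16A13 (0.0773) and SULT2B1 (0.0967), HSPE1 to MRPL14 (0.0861) and FAS (0.104), HSPH1 to MGST1 (0.0412) and POLR2F (0.0486), and DNAJB1 to SMS (0.0268) and PLEK2 (0.0324). No member had another member as its nearest gene: the closest were HSP90AA1 and DNAJB1, at 0.194. These measures rest on 5 values that share 4 control libraries and are descriptions with no test.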

How the data were processed

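Per the labels' protocols, libraries were made from 0.8 µg of total RNA with a stranded mRNA kit. The authors deposited a table of raw read counts, 1 row per gene symbol, and the submitters' processing notes name GRCh38. The aligner, the counting program, the read length and whether counting used strand are not given in the sources used here, so overlapping genes on opposite strands are uncertain. The table's 5 tallies of unassigned reads (no feature 4.24% to 8.57% of tallied reads) entered neither library sizes nor tests. Groups follow the sample titles.

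Genes were kept by filterByExpr (13947 of 23368 genes, holding 99.989% of counts), normalised with TMM and modelled in edgeR 4.0.16 under R 4.3.3 (robust quasi-likelihood, 1 coefficient per group, all 24 libraries, biological coefficient of variation 0.131). Each of 14 contrasts was tested two-sided with Benjamini-Hochberg adjustment over all genes tested. SE was taken from the log2 fold change and the square root of its F statistic. Shares and ratios within libraries were tested by exact two-sided permutation, adjusted over 5 treatments. Alternatives were other scalings, no filter, DESeq2 1.42.0, a replicate block, a minimum change, HSPA1A and HSPA1B added together, only the groups compared, and each library left out. The procedure was tested on simulated data for PI103 against control (13731 genes). Of the genes changed 1.25-fold, 20.8% were recovered, with 68% at 1.5-fold and 97.9% at 2-fold, so smaller changes were often missed there. Only 48 to 50 genes were changed at each fold, whereas 51.4% of all genes were called with PI103 in the real data. The Benjamini-Hochberg adjustment is stricter where fewer genes change, so these rates need not hold for the real comparisons. The simulation gave all genes the same biological coefficient of variation (0.13) and no batch. In control, the CPM of HSPA1B and HSPA8 had coefficients of variation of 58.2% and 47%, so the recovery does not carry over to such genes.

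The labels give the replicate number as batch, which pairs the samples. Deviations of log2 CPM (prior count 2) from group means correlated at 0.12 on average over 60 same-numbered pairs (over 0.1 in 28) and at -0.04 over 180 others. No 2 replicates agreed within sampling noise.

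The members and lists were chosen with earlier results of these data known. Apart from the members, HSF1, HSPA9 and BAG3, genes of the lists were named by rule: the 3 largest rises and falls per treatment among those called, averaging 5 CPM or more and of 1 sign across the 4 batches. Promoters are RefSeq windows and gene models GENCODE 29.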

Additional observations from a re-analysis of the deposited data

Results flagged for a closer look

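In 4 of 84 sets of 4 libraries examined, 1 library stood apart from the other 3 by Dixon's criterion, and chance alone gives about 5% of such sets. In the cells given PI103 and oxozeaenol, replicate 4 was low for HSP90AB1 (1240 CPM, the others 1600 to 1660 CPM) and for HSPB1 (78.6 CPM, the others 95.4 to 97.4 CPM), and its log2 ratio of HSPD1 to HSPE1 was 2.33 (the others 2.89 to 3). That library had 8.5% of its tallied reads in no feature, near the top of the range over all libraries. In the cells given PI103 and PD0325901, replicate 1 had a log2 ratio of HSP90AA1 to HSP90AB1 of 0.799 (the others 0.955 to 0.986).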

How the results depend on the processing

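No called value of the 10 genes changed sign under any alternative. Scaling by DESeq2's size factors left all 140 calls as they were, DESeq2's Wald test changed 1, upper-quartile scaling 6 (2 lost, 4 gained) and no filter on low counts 5 (4 lost, 1 gained). Upper-quartile scaling moved the median of all genes upward in all 5 treatments. The median went from 0.022 to 0.099 with PI103, from -0.024 to 0.07 with PD0325901 and from 0.02 to 0.082 with oxozeaenol. With PI103 and oxozeaenol it went from 0.018 to 0.093, and with PI103 and PD0325901 from 0.005 to 0.149. The replicate block gained 15 calls and lost none: with it 8 genes were called with oxozeaenol, 4 in PI103 and oxozeaenol against oxozeaenol, 5 in PI103 and PD0325901 against the mean of its agents and 7 in PI103 against oxozeaenol. Calls that required more than a 2-fold change (1 on the log2 scale) left 2, 1, 2, 3 and 2 genes in the 5 treatments against control, and 0 in PI103 and oxozeaenol against oxozeaenol, in PI103 and PD0325901 against PI103, against PD0325901 and against the mean, and in the 3 comparisons of single agents. With HSPA1A and HSPA1B added together, 1 was called in PI103 and oxozeaenol against oxozeaenol. A fit on only the groups compared called 2 in PI103 and oxozeaenol against PI103, 1 in PI103 and PD0325901 against PD0325901 and 3 in PD0325901 against oxozeaenol, and raised PI103 and PD0325901 against PI103 from 5 to 7 and PI103 against PD0325901 and against oxozeaenol from 4 to 6 each. The cause of these shifts was not tested. Shares of all genes were taken only for the main edgeR test, without a block. Counts of genes called under an alternative, here and in the paragraphs above, therefore cannot be read against a background.

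Over 1200 values with 1 library left out, 62 lost a call and 22 gained one. The number of genes called then ran from 1 to 3 in PI103 and PD0325901 against PD0325901, 1 to 4 against the mean of its agents, 1 to 3 in PI103 and oxozeaenol against oxozeaenol, 1 to 6 in PD0325901 against oxozeaenol and 2 to 5 in PI103 against oxozeaenol. HSPA1A, at about 1 CPM in control, has the fewest counts of the 10 genes.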
